A study of Homo sapiens with 6 samples.

Results

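The genes described are 10 regulators of the G1 phase of the cell cycle: the D-type cyclins CCND1, CCND2 and CCND3, their kinases CDK4 and CDK6, the CDK inhibitors CDKN1A (p21), CDKN1B (p27) and CDKN2A (p16 and ARF), the pocket protein RB1, and the transcription factor MYC. They were chosen by symbol, and all 10 were found among the 25987 genes of the table that carry a symbol. In G1, D-type cyclins activate CDK4 and CDK6, which phosphorylate the RB1 protein and so release E2F factors that switch on genes for DNA synthesis. CDKN2A's p16 product blocks CDK4 and CDK6, CDKN1A and CDKN1B block cyclin E and cyclin A complexes of CDK2, and MYC drives growth and biosynthesis genes. In clear cell renal carcinoma that has lost VHL, CCND1 is a known target of hypoxia-inducible factor, and CDKN2A is deleted in a subset of tumours.

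All samples were the human renal carcinoma cell line 786-O, of the clear cell type and given as wild type in the labels. 3 samples were grown with serum that had been preloaded with copper sulfate (chronic copper), and 3 control samples with serum treated alike but without copper. The dose was 30 uM in the series text and 30, 31 and 32 uM in the labels of the 3 copper samples, which were treated as 1 group. The labels do not say that samples of a group came from separate cultures, so p-values measure the spread between these samples, which may be technical.

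Libraries held 16301772 to 25079913 counts, and 12944 genes, 8 of the 10 members among them, passed the filter on low counts. The renal markers PAX8 (123 to 147 CPM, counts scaled to library size), VIM (2760 to 3790 CPM) and KRT18 (189 to 276 CPM) were present, while CA9, a renal carcinoma marker, reached at most 0.122 CPM. The summed level of 9 markers of blood, endothelial and liver cells was 1.03 to 1.29 CPM in copper and 0.98 to 1.36 CPM in control, with HBB at 0. Replicate 3 stood apart in both groups on the first principal component of log2 CPM, at 41.2 in copper and 17.6 in control, against -17.6 to -11.7 for the other 4 libraries. Results are therefore also given by replicate number or for replicates 1 and 2 alone. In bulk RNA a change in the share of cells in a cycle phase and a change in RNA per cell cannot be told apart.

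Of the members, the p21 gene CDKN1A was the one that differed from control by the same amount in all 3 replicates, about 0.4 on the log2 scale and higher in copper. CDKN1B was lower and CCND3 slightly higher in copper, each without overlap between groups. CCND1, CDK4 and MYC had nearly equal means in both groups, CDK6 and RB1 were low mainly in copper replicate 3, and CCND2 and CDKN2A were close to 0 in every library. By edgeR's quasi-likelihood test, adjusted over all 12944 genes, 0 of the 8 tested members were called between copper and control, beside a background of 0% of all genes called. At an unadjusted p under 0.05 there was 1 member, CDKN1A, against 3.52% of all genes, and with replicate number as a block there was again 1, against 8.41%. DESeq2 called 1 member, again CDKN1A, against 0.209% of all genes, and limma-voom called 0, against 0%. In replicates 1 and 2 alone edgeR called 1, CDKN1A, against 0.856%. With that block, edgeR called 0 members and 0.17% of all genes. Groups did not overlap for 3 of the 8 members, against 10.8% of all genes tested. Those 3 have the same sign in all 3 replicates by construction. No other member did, and the share over all genes was 34.7%. The log2 fold change was positive for 2 of the 8 and the median was -0.04, beside 51.4% positive and a median of 0.0052 over all genes tested. In replicates 1 and 2 alone 4 of the 8 were positive, with a median of 0.0078.

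**Figure D1:**
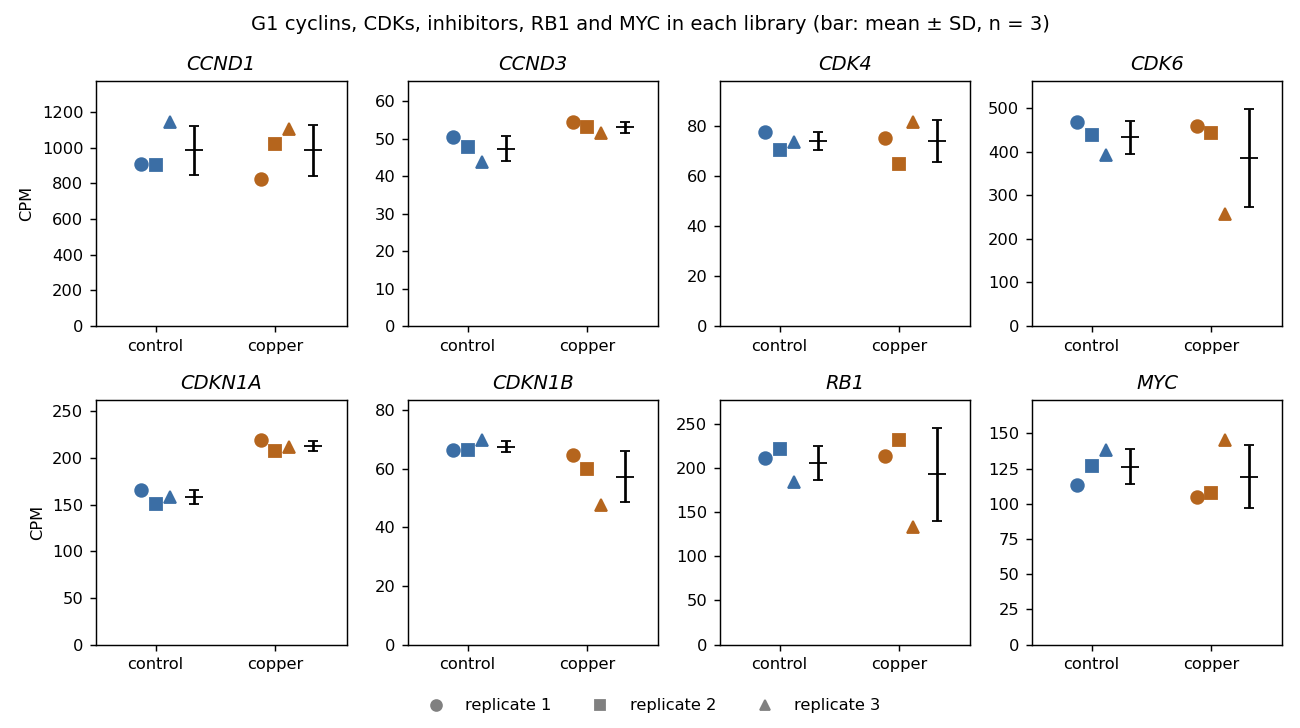
CPM (y axes, each from 0) of the 8 tested members in each control (blue) and copper (brown) library, with marker shape for the replicate number and black bars for mean ± SD of 3 libraries. CDKN1A lies at 151 to 165 CPM in control and 207 to 219 CPM in copper, while CDK6 and RB1 show 1 low library, copper replicate 3.

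CDKN1A (Entrez 1026; chromosome 6, 36678714 to 36687332, plus strand) encodes p21, an inhibitor of cyclin-dependent kinases that p53 and several stress pathways induce. Copper replicates 1, 2 and 3 had 219, 207 and 212 CPM, and control replicates had 165, 151 and 158 CPM. Every copper library was above every control library, and the gap between groups was larger than the range within either. The means were 213 ± 5.67 and 158 ± 7.20 CPM (SD, n = 3), resting on 3589 to 3931 counts per copper library and 3024 to 4112 per control library. The log2 fold change was 0.43 (SE 0.09, 95% interval 0.23 to 0.63), with an edgeR adjusted p of 0.71 without the replicate block and 0.134 with it. The difference was 0.40, 0.46 and 0.42 in replicates 1, 2 and 3. DESeq2 called it (log2 fold change 0.43, adjusted p 0.00221), as did edgeR in replicates 1 and 2 alone (0.43, adjusted p 0.00956). The size stayed between 0.39 and 0.46 under every setting tried, with a lowest adjusted p of 0.00221 and a highest of 1.00.

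The promoter at the deposited start of CDKN1A is shown because it belongs to the member with the most even difference between groups. It was taken from the RefSeq table (GRCh38.p14, chr6:36678464-36678657, plus strand), 5′ to 3′, and is the part of the 250 bases before the deposited start that lies ahead of the nearest exon start inside that window in GENCODE 29. Capitals mark the GC box GGGCGG, the sequence that Sp1-family factors bind.

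CDKN1A promoter: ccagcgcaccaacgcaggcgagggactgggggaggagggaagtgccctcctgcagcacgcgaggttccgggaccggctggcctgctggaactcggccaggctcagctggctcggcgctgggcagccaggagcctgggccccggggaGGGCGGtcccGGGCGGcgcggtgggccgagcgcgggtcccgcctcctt

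This stretch holds 2 GC boxes, and the full 250 bases hold 4 on either strand. Of 35116 windows of that length in the RefSeq table, 42.6% held at least 1. The E-box CACGTG, the site of MYC and its partners (6.34% of windows), was found 3 times before CDK4, and not before CDKN1A, CDKN1B, CDK6 or CDKN2A. The antioxidant response core TGACNNNGC (10.9% of windows) occurred once before CDK4 and once before CDKN1B. The metal response cores TGCACNC and TGCGCNC (24.8% of windows) and the E2F sites TTTGGCGC and TTTCGCGC (0.968%) were in none of these 5 windows. Both strands were searched, and GC boxes and other motifs may overlap. Only the window at each deposited start was searched, so other promoters of these genes were left out. RefSeq places the outer starts of CDKN1A (36676463) and CDK6 (92836573) upstream of the deposited ones. These matches describe letters only: a match is no evidence of binding, and a missing match says nothing about the factor.

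CDKN1B (Entrez 1027; chromosome 12, 12717368 to 12722369, plus strand) encodes p27, an inhibitor whose protein level is set largely by SKP2-dependent degradation. It was at 64.7, 59.8 and 47.6 CPM in copper replicates 1, 2 and 3 and at 66.4, 66.5 and 69.7 CPM in control. The copper libraries were all below the control libraries, and replicate 3 carried most of the gap. The means were 57.4 ± 8.81 and 67.5 ± 1.91 CPM (SD, n = 3), and the log2 fold change was -0.24 (SE 0.13, 95% interval -0.53 to 0.06; edgeR adjusted p 1.00). The difference was -0.04, -0.15 and -0.55 in replicates 1, 2 and 3. Without copper replicate 3 it was -0.12 (adjusted p 0.577).

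CDKN1A and CDKN1B thus lay on opposite sides of the control levels. Per kilobase of exon, CDKN1A stood at 3.58, 3.67 and 4.72 times the level of CDKN1B in copper replicates 1, 2 and 3. In control replicates that ratio was 2.64, 2.40 and 2.41. The groups could not overlap in this ratio, because every copper library was above control for CDKN1A and below it for CDKN1B. The ratio was chosen with the counts in view and was not tested.

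**Figure D2:**
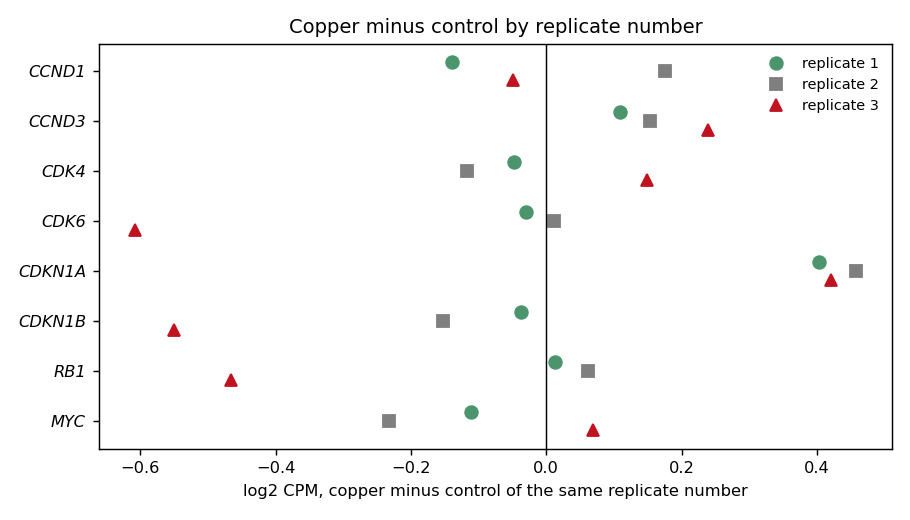
Copper minus control of the same replicate number, as a difference of log2 CPM (x axis), for the 8 tested members (y axis), with marker shape and colour for the replicate number. CDKN1A lies between 0.40 and 0.46 in all 3, whereas CDK6, CDKN1B and RB1 are far below 0 in replicate 3 only.

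CCND1 (Entrez 595; chromosome 11, 69641156 to 69654474, plus strand) encodes cyclin D1, the D-type cyclin that carries growth factor signals to CDK4 and CDK6. It had 826, 1019 and 1106 CPM in copper replicates 1, 2 and 3 and 910, 902 and 1144 CPM in control. The groups overlapped, and replicate 3 was the highest library in each. The means were 984 ± 143 and 985 ± 137 CPM (SD, n = 3), and the log2 fold change was -0.0023 (SE 0.15, 95% interval -0.35 to 0.35; edgeR adjusted p 1.00). The interval spans 0, and no direction is given. Without control replicate 3 the value was 0.12, and without copper replicate 1 it was 0.11.

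CCND3 (Entrez 896; chromosome 6, 41934933 to 42048894, minus strand), cyclin D3, was at 54.5, 53.2 and 51.6 CPM in copper and at 50.5, 47.9 and 43.7 CPM in control replicates 1, 2 and 3. Every copper library was above every control library, by a narrow margin between the lowest copper and the highest control value. The log2 fold change was 0.16 (SE 0.10, 95% interval -0.06 to 0.39; edgeR adjusted p 1.00), and it was 0.11, 0.15 and 0.24 in replicates 1, 2 and 3. Without control replicate 3 it was 0.11. CCND3 has 2 annotated pseudogenes, and how reads shared with them were counted is not given in the sources used here.

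CCND2 (Entrez 894; chromosome 12, 4273762 to 4305352, plus strand), cyclin D2, had 2 counts over the 3 copper libraries and 2 over the 3 control libraries. Those are 0.0382 CPM (95% Poisson interval 0.00463 to 0.138, counting error only) and 0.0308 CPM (0.00372 to 0.111). It was not tested, and no fold is given because both groups are under 3 counts. Per kilobase of exon, CCND1 made up 93.1% to 95.9% of the D-type cyclin transcripts in the 6 libraries, so the D-type cyclin RNA of these cells was mostly cyclin D1 in both groups.

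CDK4 (Entrez 1019; chromosome 12, 57747727 to 57752310, minus strand) and CDK6 (Entrez 1021; chromosome 7, 92604921 to 92833959, minus strand) encode the kinases that D-type cyclins activate. CDK4 was at 75.1, 65.0 and 81.8 CPM in copper replicates 1, 2 and 3 and at 77.6, 70.5 and 73.7 CPM in control. The groups overlapped with equal means (73.95 ± 8.43 and 73.95 ± 3.57 CPM, SD, n = 3), and the 95% interval of the log2 fold change was -0.26 to 0.26. CDK4 overlaps TSPAN31 on the opposite strand, which had 307 to 501 counts. The use of strand in counting is not given in the sources used here, so reads of the overlap cannot be assigned. CDK4 also has 1 annotated pseudogene, and how reads shared with it were counted is likewise not given.

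CDK6 was at 459.5, 443 and 257 CPM in copper replicates 1, 2 and 3 and at 469, 439 and 392 CPM in control. Copper replicate 3 was far below the other 5 libraries, copper replicates 1 and 2 lay within the control range, and control replicate 3 was the lowest of its group. The log2 fold change was -0.17 (SE 0.21, 95% interval -0.66 to 0.33; edgeR adjusted p 1.00). It was -0.03, 0.01 and -0.61 in replicates 1, 2 and 3, and 0.06 without copper replicate 3. Per kilobase of exon, CDK6 stood at 1.08, 1.21 and 0.557 times CDK4 in copper and at 1.07, 1.10 and 0.941 times CDK4 in control.

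RB1 (Entrez 5925; chromosome 13, 48303751 to 48481890, plus strand) encodes the pocket protein that holds E2F factors inactive until it is phosphorylated. Copper replicates 1, 2 and 3 had 214, 232 and 133 CPM, and control replicates had 212, 222 and 184 CPM. As for CDK6, the low library was copper replicate 3, and replicates 1 and 2 of copper were within or above the control range. The log2 fold change was -0.09 (SE 0.20, 95% interval -0.57 to 0.38; edgeR adjusted p 1.00), with 0.01, 0.06 and -0.47 in replicates 1, 2 and 3. It was 0.11 without copper replicate 3 and 0.04 in replicates 1 and 2 alone. LPAR6, which lies within RB1 on the opposite strand, had only 4 to 18 counts.

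Besides the low values of CDK6 and RB1, the median difference between copper and control of the tested genes in replicate 3 varied with genomic span. Span was taken from deposited start to deposited end. When the tested genes were split into 5 groups of equal size by span, the median difference in replicate 3 was 0.20 for the shortest (up to 8.41 kb), 0.10, -0.0020, -0.11 for the next 3, and -0.22 for the longest (from 78.9 kb). In replicates 1 and 2 the 5 medians ranged only from -0.017 to 0.026. Replicate 3 minus the mean of replicates 1 and 2 ran the same way within each group, from 0.10 for the shortest to -0.06 for the longest genes in control and from 0.30 to -0.31 in copper. CDK6 (229 kb), RB1 (178 kb) and CCND3 (114 kb) fall in the group of longest genes. CDKN1B (5.0 kb), CDK4 and MYC fall in the shortest, and CCND1 and CDKN1A in the second. CDKN1B, low in copper replicate 3, and CCND3, higher in copper in replicate 3, thus lay opposite to the medians of their groups, and CDK6 and RB1 lay further below 0 than theirs. The part of this trend in the single values was not tested, and the split by span was chosen after the values were seen.

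**Figure D3:**
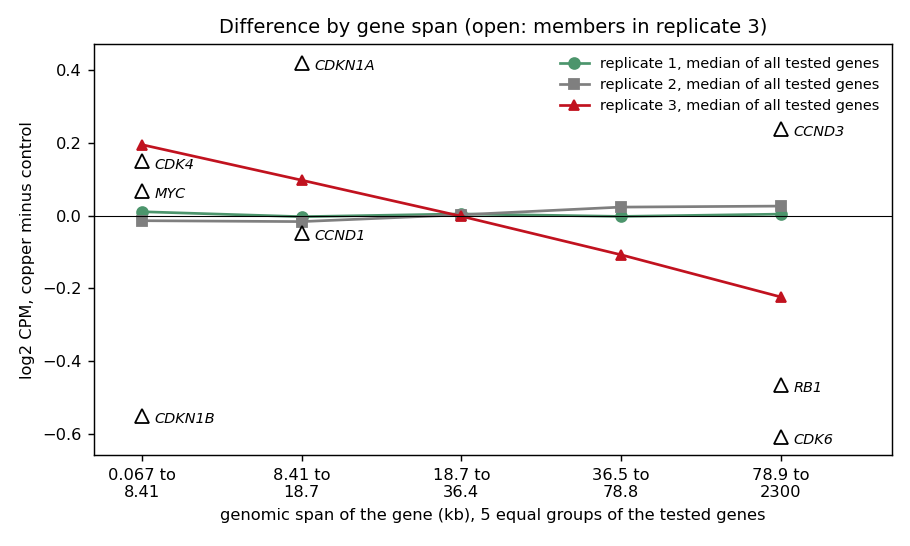
Median difference of log2 CPM between copper and control (y axis) for tested genes in 5 equal groups of genomic span in kb (x axis), 1 line per replicate number, with the members' values in replicate 3 as open triangles. Replicate 3 slopes from 0.20 to -0.22 while replicates 1 and 2 stay near 0, and CDKN1A at 0.42 and CDKN1B at -0.55 are far from the line.

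CDKN2A (Entrez 1029; chromosome 9, 21967752 to 21995324, minus strand) encodes p16, the inhibitor specific to CDK4 and CDK6, and ARF, which stabilises p53; 786-O is known for a homozygous deletion of this locus. It had 1 count over the 3 copper libraries (0.0191 CPM, 95% Poisson interval 0.000484 to 0.106, counting error only) and 3 counts over the 3 control libraries (0.0461 CPM, 0.00952 to 0.135). It was not tested, and both groups are within 3 counts, so no fold is given. CDKN2B, the neighbouring gene for p15, was likewise near 0, with means of 0.0390 CPM in copper and 0.0443 CPM in control.

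MYC (Entrez 4609; chromosome 8, 127735434 to 127742951, plus strand) encodes the transcription factor that, with its partner MAX, drives ribosome production and metabolism genes. It was at 105, 108 and 145 CPM in copper replicates 1, 2 and 3 and at 114, 127 and 138 CPM in control. The groups overlapped, and replicate 3 was the highest library of each. The means were 119 ± 22.4 and 126 ± 12.4 CPM (SD, n = 3), and the log2 fold change was -0.08 (SE 0.15, 95% interval -0.43 to 0.27; edgeR adjusted p 1.00). The difference was -0.11, -0.23 and 0.07 in replicates 1, 2 and 3. Without copper replicate 1 the log2 fold change was 0.0014.

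Over the 6 libraries, the order of levels per kilobase of exon put CCND1 first at 224 ± 28.5 CPM per kb (SD, n = 6) and CDKN1A second at 73.9 ± 12.1, with ranges that did not overlap those of any other member. MYC (40.9 ± 5.53), RB1 (39.8 ± 7.23), CDK4 (35.6 ± 2.79) and CDK6 (35.0 ± 6.77) followed, and neighbours among these 4 did not differ beyond their spread. CDKN1B (23.5 ± 3.00, range 17.9 to 26.2) overlapped the range of CDK6 (21.9 to 40.0). CCND3 (12.7 ± 0.998) came below all of these, and CDKN2A and CCND2 were last with at most 0.0332 CPM per kb in any library. Exon lengths were unions over GENCODE 29 basic transcripts, which may not be the exons the authors counted.

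Differences among replicate numbers were also tested, with group as a term. By edgeR, the replicate number term called 0 of the 8 members, against 6.46% of all genes tested. At an unadjusted p under 0.05 there were 4 members, against 29.2% of all genes: CCND1, CDK6, RB1 and MYC, with adjusted p-values of 0.117, 0.101, 0.0876 and 0.116. DESeq2's likelihood ratio test called 2 members, CDK6 and RB1, against 11.2% of all genes. Leaving out single libraries gave from 0 to 5 members, the most without control replicate 3, where 53.5% of all genes were called. CDKN1A (adjusted p 0.722) and CDKN1B (0.631) had the largest adjusted p-values of the 8 for this term, and CCND1 and MYC were higher in replicate 3 of both groups (0.34 and 0.21 in control, 0.27 and 0.45 in copper, as log2 CPM above the mean of replicates 1 and 2).

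The genes next to these in the pathway were described from 8 lists, with 0 of their tested genes called by edgeR with or without the block, and background values as above for all genes tested. Of 17 genes of the RB-E2F and cyclin E list, 4 had a positive and 13 a negative log2 fold change (median -0.04). Groups did not overlap for 2 of the 17, both lower in copper, against 5.35% of all genes for that direction. The median was -0.05, -0.0070 and -0.31 in replicates 1, 2 and 3, and -0.03 with 6 of 17 positive in replicates 1 and 2 alone. It ran from -0.14 without copper replicate 2 to -0.012 without control replicate 1. CCNA2, cyclin A2 of S phase and G2, was one of them, at 148 ± 21.8 CPM in copper and 201 ± 4.81 in control (SD, n = 3). Its log2 fold change was -0.44 (SE 0.12; edgeR adjusted p 1.00, and 0.216 with the block), with -0.33, -0.34 and -0.69 in replicates 1, 2 and 3. In replicates 1 and 2 alone edgeR called CCNA2 (-0.34, adjusted p 0.0225), the only gene of these 8 lists called there, where 0.856% of all genes were called. E2F5, a repressive E2F, was the other, at 16.1 ± 0.990 and 19.4 ± 2.40 CPM (log2 fold change -0.26, SE 0.13, and -0.17 without control replicate 3). Its highest copper and lowest control library were both at 17.05 CPM, so the groups barely separated.

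Mitosis genes, which peak in G2 and M, were lower in copper throughout: all 8 had a negative log2 fold change, with a median of -0.24, and all 8 were lower in all 3 replicates, against 17% of all genes. The groups did not overlap for 7 of the 8, against 5.35% of all genes for that direction. BUB1, a spindle checkpoint kinase, was at 211, 210 and 193 CPM in copper and at 244.5, 231 and 251 CPM in control replicates 1, 2 and 3 (log2 fold change -0.25, SE 0.09; edgeR adjusted p 1.00). CCNB1, cyclin B1, was at 155, 136 and 139 CPM against 174, 164 and 168 CPM (-0.24, SE 0.09; edgeR adjusted p 1.00). The median of the list was -0.18, -0.16 and -0.37 in replicates 1, 2 and 3, and -0.18 in replicates 1 and 2 alone, where 7 of 8 did not overlap against 21.4% of all genes. BUB1 has 1 annotated pseudogene, and how reads shared with it were counted is not given in the sources used here. The list was chosen with a lower level of proliferation genes in these counts already known, so it is no independent evidence.

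S phase entry genes that E2F switches on did not share that direction. Of 10, 5 had a positive and 5 a negative log2 fold change (median -0.011), and 0 separated the groups, against 10.8% of all genes. That median ran from -0.08 without copper replicate 1 to 0.02 without control replicate 1. RRM2, a ribonucleotide reductase subunit, had -0.19 (SE 0.10) and PCNA, the sliding clamp of DNA polymerase, 0.18 (SE 0.10), both with an edgeR adjusted p of 1.00. Both have 3 annotated pseudogenes, and how reads shared with those were counted is not given in the sources used here.

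Targets of p53 were mostly higher in copper: 19 of 20 had a positive log2 fold change, against 51.4% of all genes, with a median of 0.18. The exception was CCNG1 (-0.14, SE 0.09). The groups did not overlap for 3 of the 20, all higher in copper, against 5.45% of all genes for that direction. GDF15, a secreted stress cytokine, was at 4.94, 7.96 and 9.93 CPM in copper and at 2.78, 3.77 and 4.93 CPM in control replicates 1, 2 and 3. Its log2 fold change was 0.98 (SE 0.31), with 0.81, 1.06 and 1.00 by replicate. Its lowest copper value was barely above the highest control value, and edgeR gave an adjusted p of 1.00, or 0.0533 with the replicate block. BAX, a pro-apoptotic BCL2 family member, had 0.32 (SE 0.14, and 0.18 without copper replicate 3) and the p53 ubiquitin ligase MDM2 0.10 (SE 0.09). The list's median was 0.18, 0.13 and 0.15 in replicates 1, 2 and 3, and 11 of the 20 were higher in all 3, against 17.7% of all genes. In replicates 1 and 2 alone 18 of 20 were positive, with a median of 0.17, and 15 of 20 did not overlap, all higher, against 22.7% of all genes. Without control replicate 3 the median was 0.12. This list too was chosen with earlier results of these data known, so it is no independent evidence.

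**Figure D4:**
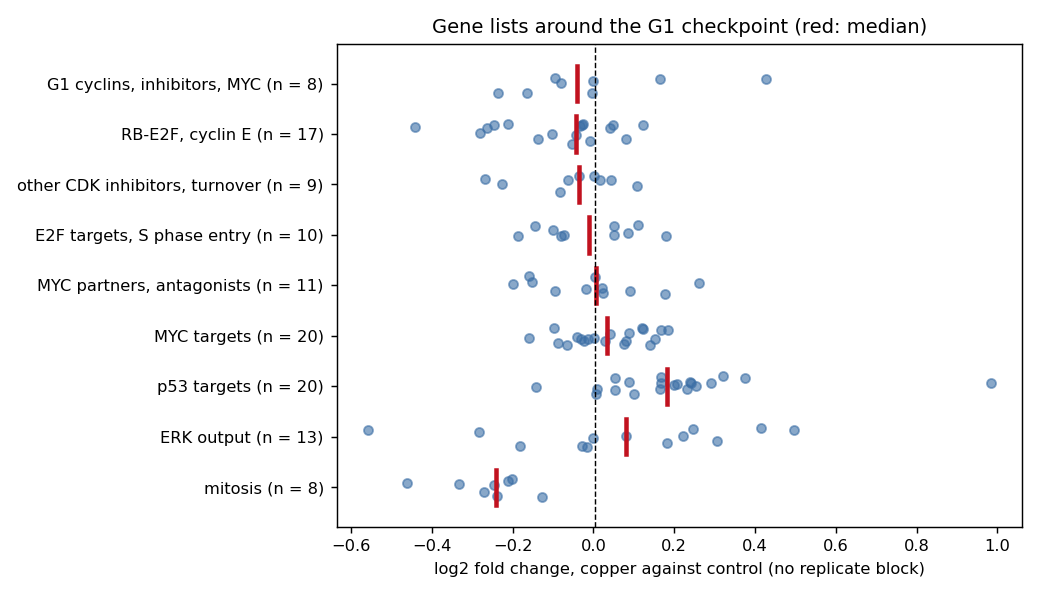
Log2 fold change between copper and control (x axis) of each tested gene (points) of the members and 8 related lists (y axis, with the number tested), with the list median in red and the median of all genes as a dashed line. The 8 mitosis genes lie below 0 and 19 of 20 p53 targets above it, while MYC targets and E2F targets straddle 0.

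MYC targets, mostly genes of ribosome assembly, were split like all genes: 12 of 20 had a positive and 8 a negative log2 fold change, with a median of 0.03, or 0.00089 without control replicate 3 and 0.0042 without copper replicate 1. MRTO4, a factor of ribosome assembly, was the only 1 of the 20 without overlap, against 5.45% of all genes for that direction. It was at 95.2 ± 4.81 CPM in copper and 84.8 ± 1.94 in control (0.17, SE 0.09). CAD, the enzyme that starts pyrimidine synthesis, had -0.16 (SE 0.10), or -0.10 without copper replicate 3. Of 11 tested MYC partners and antagonists, 6 were positive and 5 negative (median 0.0053). The median was -0.09, -0.03 and 0.09 in replicates 1, 2 and 3, and in replicates 1 and 2 alone 4 of 11 were positive, with a median of -0.10. It ran from -0.19 without copper replicate 3 to 0.07 without copper replicate 2. MXD1, an antagonist that competes for MAX, had 0.18 (SE 0.18), from 0.05 without control replicate 1 to 0.30 without control replicate 3. MXI1, another such antagonist, had -0.15 (SE 0.14), from -0.28 without copper replicate 3 to -0.05 without copper replicate 1. MYCN was not tested for low counts.

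Other CDK inhibitors and regulators of cyclin D or p27 turnover had 4 positive and 5 negative of 9 tested, with a median of -0.04, from -0.12 without control replicate 2 to -0.011 without control replicate 3. CDKN1C and CDKN2B were too low to test. The p18 gene CDKN2C, an inhibitor of CDK4 and CDK6, was at 129 ± 15.7 CPM in copper and 151 ± 10.4 in control (-0.23, SE 0.12, and -0.14 without copper replicate 3), lower in all 3 replicates but overlapping. The p19 gene CDKN2D had -0.27 (SE 0.25), from -0.57 without copper replicate 3 to -0.06 without control replicate 3, and was called for the replicate number term (edgeR adjusted p 0.0246). ERK output genes had 7 positive and 6 negative of 13 (median 0.08), and that median changed sign between replicates, at -0.16, 0.25 and 0.13. It ran from -0.16 without copper replicate 3 to 0.38 without control replicate 3. The feedback inhibitors with the 2 smallest p-values of the list were SPRY4 (-0.56, SE 0.32, and -0.30 without control replicate 3) and SPRED2 (-0.28, SE 0.12). Both were lower in all 3 replicates, each with an edgeR adjusted p of 1.00. SPRY4 rested on few counts, with means of 1.00 CPM in copper and 1.54 CPM in control. SPRED2 had means of 20.3 and 24.7 CPM. Other feedback inhibitors of the list were mixed. SPRED1 had -0.18 (SE 0.12), SPRY2 -0.017 (SE 0.17) and the ERK phosphatase gene DUSP6 0.50 (SE 0.52).

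Genes with the pattern most like 3 members over the 6 libraries were found by the root mean square difference of log2 CPM centred on each gene's mean, among 9257 other genes that averaged 10 CPM or more. Closest to CCND1 were NAPB (0.0289) and TCF7L2 (0.0291), and closest to MYC were FBRS (0.0186) and PNP (0.0241). Closest to CDKN1A were RGS20 (0.0786) and TALDO1 (0.0835), at larger distances.

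In simulated counts with the spread estimated here, the test without the block recovered 156 of 200 genes changed 2-fold, with 12 false calls, and 3 of 200 changed 1.5-fold, among 12823 and 12825 genes tested. The tested members' differences were all below 1.5-fold, a size at which the simulated test made few calls. The simulation left out the shared deviation of same-numbered libraries and changed genes picked at random. It therefore cannot say why any single member was not called.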

How the data were processed

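Total RNA of 6 samples of 786-O was sequenced from directional NEBNext libraries, per the labels' protocols. The authors deposited raw counts per gene; the submitters' processing notes name STAR, FastQC, edgeR and GRCh38, and the counting program, its strand setting and the treatment of multi-mapping reads are not given in the sources used here. Starts in the table count from 0, and 1 was added. Genes without a symbol (5, 0.000814% of counts) were left out.

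Counts were filtered with filterByExpr (minimum count 10, total 15), scaled by TMM and tested with edgeR 4.0.16 (robust quasi-likelihood, group as the term, prior count 2) in R 4.3.3, with Benjamini-Hochberg adjustment over all genes tested and calls under 0.05. CPM used TMM library sizes. Intervals are 95%. Same-numbered libraries deviated together from their group means (correlations 0.46, 0.40 and 0.65 across genes, all above 0.1), so replicate number was also fitted as a block. Because replicate 3 stood apart in both groups, the values for replicates 1 and 2 can follow from replicate 3 alone. Libraries of different numbers were not compared in this way, so these correlations cannot show that the numbers pair samples. The pairing comes from the numbers in the labels, which do not say what they mark. Within a group, libraries differed by at least 5.04 in chi-square per degree of freedom and were counted separately.

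Alternatives were RLE and total-count scaling, no filter, DESeq2 1.42.0, limma-voom 3.58.1, a prior count of 0.125, the block, replicates 1 and 2 alone, and leaving out each library. The fits were tested on simulated counts. Named genes were the 10 members, the 2 genes of each of 8 lists with the smallest p without the block, and the 2 genes closest in pattern to CCND1, CDKN1A and MYC. MDM2, CCNG1, DUSP6, SPRY2, SPRED1, CDKN2B, CDKN1C and MYCN were named after their values were seen. Lists came from general knowledge. Members and lists were chosen with earlier results of these data known. RefSeq promoter windows were found for 7 of the 9 members looked up, 5 of them at the deposited start; none is printed for the others.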

Additional observations from a re-analysis of the deposited data

How the results depend on the processing

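The number of genes called between copper and control, 0 without the replicate block, came to 12 without a filter, 27 by DESeq2, 22 with the replicate block and 111 in replicates 1 and 2 alone, and from 0 to 15 when single libraries were left out, with 15 without copper replicate 3. The members called were 1 with DESeq2 and 1 in replicates 1 and 2 alone, CDKN1A in each case, and 0 in each fit without 1 library. The replicate block changed no call of a member or named gene. The replicate number term called 836 genes, 3109 with no filter and 1450 with DESeq2, and from 1177 to 6997 without single libraries, the most without control replicate 3. It called 2 members with no filter and 2 with DESeq2, CDK6 and RB1 in each, and from 0 to 5 without single libraries.

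Of the named genes' log2 fold changes under alternatives, 394 kept direction and call, 3 became called (CDKN1A with DESeq2, and CDKN1A and CCNA2 in replicates 1 and 2 alone) and 23 changed sign, all of them uncalled. Signs changed with total-count scaling for CCND1 (0.0254), CDK4 (0.0282), NAPB (0.00704) and TCF7L2 (0.0230), with limma-voom for TCF7L2 (0.00287), and in replicates 1 and 2 alone for CCND1 (0.0256), RB1 (0.0385) and TCF7L2 (0.0242). Total-count scaling moved the median of all genes from 0.0052 to 0.0325, a shift about the size of its 4 changes of sign. Leaving out single libraries gave ranges of -0.0951 to 0.118 for CCND1, -0.0794 to 0.0805 for CDK4, -0.311 to 0.0573 for CDK6, -0.250 to 0.113 for RB1, -0.245 to 0.00143 for MYC, -0.133 to 0.102 for NAPB, -0.109 to 0.129 for TCF7L2, -0.218 to 0.0147 for FBRS and -0.226 to 0.0233 for PNP. What caused the other changes of sign was not tested. Counts of CCND2 and CDKN2A were too few to show a difference at this depth.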
